A study of Mus musculus with 6 samples.

Results

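The endothelial cells of the hypothalamic paraventricular nucleus (PVN) were described in 2 droplet single-cell RNA libraries, one from unstressed mice and one from mice exposed to chronic social defeat. A cell barcode was taken as endothelial when 200 or more genes were detected in it, mitochondrial UMIs (unique molecular identifiers, each counting 1 captured RNA molecule) were no more than 25%, and it held at least 5 UMIs of Cldn5, Flt1 and Pecam1 together, under 6 UMIs of the neuronal genes Snap25, Syt1, Stmn2 and Rbfox3, and under 3 UMIs of the microglial genes P2ry12, Tmem119 and Cx3cr1. This gave 515 cells, 231 from the control and 284 from the stress library, of 7177 PVN barcodes that passed the gene and mitochondrial limits and of 23083 barcodes in the whole series.

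All mice were of the C57BL/6 strain and 10 weeks old, and no genetic modification is named in the labels. The control mice were not exposed to defeat, and the stress mice underwent 21 days of social defeat. Each library pooled the tissue of 5 mice, so a group was 1 sample, and no spread between mice could be measured and no test was made. The PVN was dissected by hand with some surrounding tissue after the mice had been perfused with cold saline, the pooled pieces were digested with papain, and both PVN suspensions were loaded on one chip. The series also held pituitary and adrenal libraries of the same 2 conditions, and by the same rule the pituitary gave 55 and 82 endothelial barcodes and the adrenal gland 185 and 332 (control and stress throughout).

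Brain endothelial cells form the blood-brain barrier. Tight junction proteins such as claudin-5 seal the gaps between them, transporters carry glucose, thyroid hormone, amino acids and lipids across, and efflux pumps return drugs to the blood, a state that Wnt signalling from neural tissue maintains. The vessels of the pituitary and adrenal gland are fenestrated, with pores through which hormones pass, and carry the diaphragm protein Plvap. Inflammatory signals induce adhesion molecules such as Icam1 and Vcam1, which let leukocytes attach to the vessel wall.

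The endothelial cells made up 6.39% of the kept control barcodes (exact 95% interval 5.61 to 7.23) and 7.98% of the kept stress barcodes (7.11 to 8.92). Of barcodes that were not neuronal they were 11.2% and 14.0%. These intervals, like those of all levels and ratios below, cover counting error only and not the spread between mice. The 2 libraries held 31110127 and 29916957 UMIs, of which the endothelial cells carried 1738537 and 1874645. A median endothelial cell held 6111 and 5313 UMIs, 2522 and 2277.5 genes and 2.58% and 2.39% mitochondrial UMIs. Few barcodes lay near the threshold: 7 and 5 barcodes had 3 or 4 UMIs of the 3 endothelial genes, 2 and 7 had 5 to 7, and 211 and 261 had 20 or more. The neuronal limit removed 27 and 25 barcodes and the microglial limit 3 and 0. The 2 PVN libraries shared 16 barcode sequences (0.443% of the smaller library), and no endothelial cell was among them.

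Many of the cells also held RNA of the mural cells that wrap capillaries. Of 7 pericyte markers none was at 0, their summed level was 2546 and 2402 CPM (counts scaled to 1000000 UMIs of the endothelial cells), and 98 cells (42.4%) and 109 cells (38.4%) held at least 5 UMIs of them. Astrocyte markers reached 5 UMIs in 23 and 21 cells with summed levels of 478 and 405 CPM, ependymal markers in 15 and 13 (394 and 359 CPM), tanycyte markers in 7 and 8 (199 and 107 CPM) and smooth muscle markers in 5 and 7 (158 and 92.8 CPM). Of the erythroid markers, 11 and 22 cells held 5 or more UMIs, and their summed level was 20538 CPM in the control and 27157 CPM in the stress library. No cell held 5 UMIs of the fibroblast or perivascular macrophage markers, a count of 0 that allows a share of up to 1.30% and 1.06% (3 of 231 and of 284 cells), with exact upper bounds of 1.58% and 1.29%. None held 5 UMIs of the microglial markers either, which the rule's own microglial limit largely fixed. Free RNA of PVN neuropeptides was present in both libraries at 633 and 472 CPM. The part of these other transcripts in the comparisons below was not tested, and 105 and 146 cells remained when every cell with 5 UMIs of a pericyte, smooth muscle, fibroblast, astrocyte, oligodendrocyte, ependymal or erythroid list was left out.

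The endothelial label matched the markers the rule did not use. Slco1a4, an organic anion transporter of brain capillaries, was at 1719 CPM in the control and 1652 CPM in the stress library, against 2.69 and 2.19 CPM in other PVN cells, which are the 3303 and 3214 kept barcodes with under 2 UMIs of the rule's 3 genes. Cdh5, the cadherin of endothelial junctions, was at 228 and 255 CPM against 0.248 and 0.297 CPM. The genes with the highest ratio over other PVN cells also included Foxq1, a transcription factor, at 559 and 525 CPM, the efflux pump gene Abcb1a at 476 and 426 CPM, and the amino acid transporter gene Slc38a5 at 320 and 395 CPM. The genes of the rule, Cldn5 at 6351 and 6754 CPM, Flt1 at 2053 and 2023 CPM and Pecam1 at 391 and 403 CPM, are given as a description of the choice.

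The PVN cells carried barrier genes that pituitary and adrenal endothelial barcodes held at low levels or not at all. Slc2a1, the glucose transporter of the barrier, was at 1857 and 1958 CPM in the PVN, in pituitary barcodes at 29.4 and 22.8 CPM, and at 16.2 and 14.7 CPM in those of the adrenal gland. Mfsd2a, which carries lysophospholipids and holds transcytosis low, was at 330 and 315 CPM in the PVN, with no UMI in pituitary barcodes and 0 and 0.397 CPM in adrenal ones. Slco1c1, a thyroid hormone transporter gene, was at 831 and 859 CPM in the PVN and had no UMI in the endothelial barcodes of the other 4 libraries. Foxq1 had no UMI in those barcodes either. No UMI allows up to 9.78 and 6.83 CPM in pituitary and 1.80 and 1.19 CPM in adrenal barcodes. In other pituitary cells Foxq1 was at 1.87 and 2.17 CPM. Lef1, a nuclear partner of beta-catenin in Wnt signalling, was at 331 and 336 CPM, against 9.78 and 2.28 CPM in pituitary barcodes and 36.1 and 35.8 CPM in adrenal ones.

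The reverse held for genes of fenestrated vessels. Plvap was at 3.45 and 2.67 CPM in the PVN cells, from 6 and 5 UMIs in as many cells, against 6200 and 6057 CPM in pituitary barcodes and 1431 and 1757 CPM in adrenal ones. The 2.60% and 1.76% of PVN endothelial cells with a Plvap UMI lay below the 30.8% and 26.9% of PVN neurons with one (median depth 11558 and 11559 UMIs), so they are read as background. Esm1, an endothelial secreted proteoglycan, had no UMI in the PVN cells, which allows up to 1.73 and 1.60 CPM, and was at 176 and 175 CPM in pituitary and 374 and 481 CPM in adrenal barcodes. Igfbp3 was at 33.4 and 21.3 CPM in the PVN and at 5160 and 4268 CPM in the pituitary. With 1 library per tissue and condition, tissue, dissociation and depth cannot be told apart, and a median rule total of 55 and 50.5 UMIs in the PVN stood against 9 and 9 for pituitary and 13 and 11 for adrenal barcodes.

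**Figure D1:**
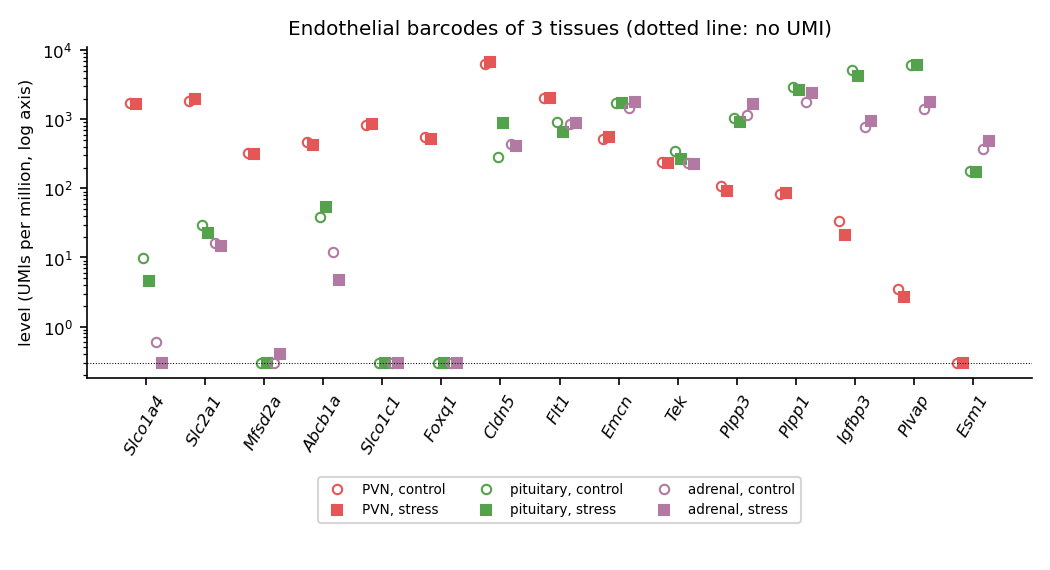
Levels of 15 endothelial genes (CPM, log axis) in PVN, pituitary and adrenal gland, open circles for control and filled squares for stress. Barrier genes such as Slco1a4 and Slc2a1 were highest in both PVN libraries, and Igfbp3, Plvap and Esm1 were lowest there; a point on the dotted line had no UMI.

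Along the vessel tree, most cells carried capillary genes and smaller sets carried arterial or venous ones. To compare shares across depths each cell was thinned at random to 2500 UMIs, which left no cell out. At least 3 UMIs of the 9 capillary genes were then found in 96.1% of cells in both libraries. The share with 3 UMIs of the 9 venous genes was 49.4% (42.7 to 56.0) in the control and 62.0% (56.0 to 67.6) in the stress library, and 83.5% and 86.3% without thinning. The 12 arterial genes reached 3 UMIs in 31 control and 34 stress cells after thinning and in 29.0% and 24.3% of cells without it. Mfsd2a, a capillary gene, had a UMI in 81.0% and 78.9% of cells without thinning, against 3.26% and 2.61% of neurons. Slc38a5, on the venous list, had one in 58.0% and 61.6% of cells, against 0.466% and 0.871% of neurons. Gkn3, a gene of brain arteries, had one in 10.8% and 9.86% of cells, against 0.865% and 0.335% of neurons. Of the 22 and 24 cells with at least 2 UMIs of Gkn3 or Bmx, a set chosen after the values were seen, the Slc38a5 level was 29.8 and 27.5 CPM, against 320 and 395 CPM over all endothelial cells. The selectin genes Selp and Sele had no UMI in either library.

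Between the libraries most endothelial genes lay close together. Of 7888 genes with at least 50 UMIs over both libraries, 153 (1.94%) were at least 1.5-fold higher in the stress library and 306 (3.88%) at least 1.5-fold lower, with 0.5 UMI added to each sum. In other PVN cells the shares were 1.59% and 1.83% of 14672 genes. The median log2 ratio over the endothelial genes was -0.03, and 44.5% of them were above 0, beside 52.8% in other PVN cells. In pituitary endothelial barcodes 6.28% of 2578 genes were higher, 3.88% lower and 53.6% above 0, and in adrenal ones 3.54% of 8166 were higher, 4.76% lower and 49.8% above 0. The 12 highest genes, ranked by the bound of the 95% interval nearest to 0, were 2 immune genes (Icam1 and Csf1), 2 vitamin uptake genes (Stra6 and Slc52a3), 6 chaperone or cochaperone genes (Dnaja1, Hspa1a, Cacybp, Fkbp4, Hspb1 and Hspa8) and 2 haemoglobin genes. The 12 lowest were Slc25a18, Col23a1, Ssh2, Mdk, Nrp2, Egr2, Ciart, Ntrk2, Gkn3, S100a6, Cebpb and Nnat.

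**Figure D2:**
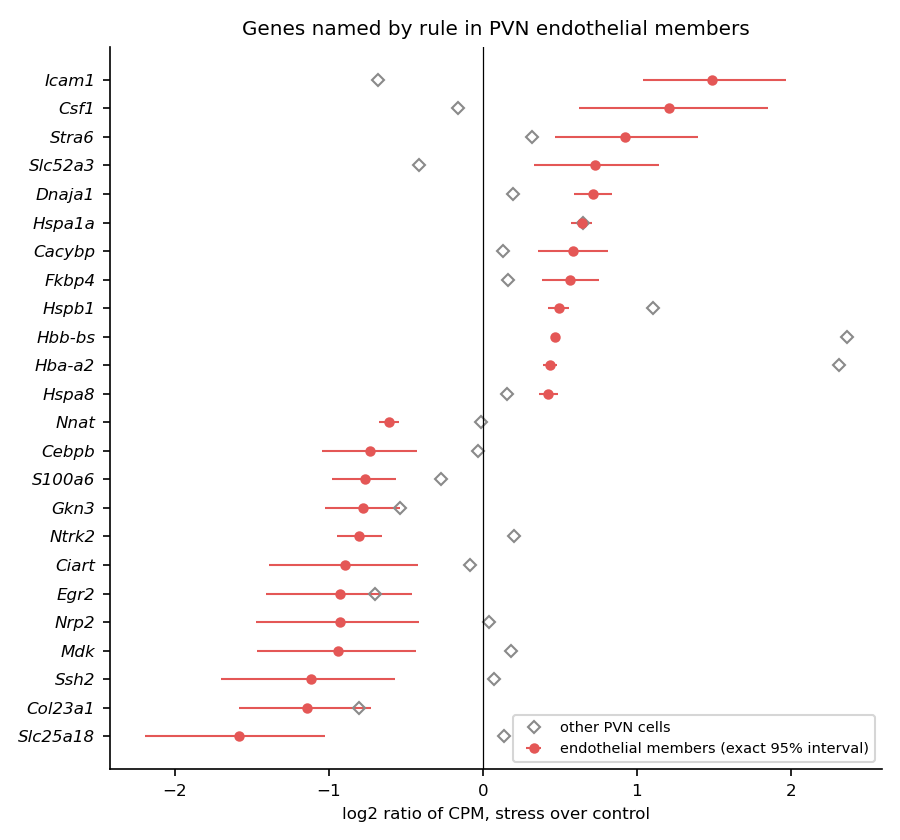
Log2 ratio of stress over control for the 12 highest and 12 lowest genes chosen by the bound of the interval nearest to 0, red points for endothelial cells with exact 95% intervals and grey diamonds for other PVN cells. Icam1 stood at 1.49 in the endothelial cells and at -0.68 in other PVN cells, and the haemoglobin genes were higher still in other PVN cells.

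Icam1, the leukocyte adhesion molecule, had the highest ratio of all 7888 genes. It was counted at 53 UMIs in the control and 161 in the stress library, 30.5 CPM (22.8 to 39.9) and 85.9 CPM (73.1 to 100.2), a log2 ratio of 1.49 (1.04 to 1.97), or 2.80-fold. The gene (ENSMUSG00000037405) lies on chromosome 9 at 21015985 to 21028817 on the plus strand of GRCm38. In other PVN cells Icam1 was lower in the stress library, 15.2 and 9.45 CPM. The Icam1 ratio was -0.34 (-1.43 to 0.77) in pituitary and 0.44 (0.09 to 0.81) in adrenal endothelial barcodes.

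Csf1, which encodes the growth factor of macrophages and microglia, rested on 33 and 83 UMIs, 19.0 CPM (13.1 to 26.7) and 44.3 CPM (35.3 to 54.9), a log2 ratio of 1.21 (0.62 to 1.85). The gene (ENSMUSG00000014599) spans 107741048 to 107760469 on the minus strand of chromosome 3. Vcam1, the second large adhesion molecule gene of activated endothelium, had 90 and 153 UMIs, 51.8 CPM (41.6 to 63.6) and 81.6 CPM (69.2 to 95.6), a log2 ratio of 0.65 (0.27 to 1.05). In adrenal endothelial barcodes Csf1 was at 0.96 (0.54 to 1.42) and Vcam1 at 0.74 (0.18 to 1.34), and in pituitary ones Csf1 was at 0.36 (-0.85 to 1.75) and Vcam1 had 4 and 0 UMIs. One stress cell alone held 31 Vcam1 UMIs, and no control cell held more than 12. Without the 5 cells of each library with the most UMIs of the gene, the ratios were 1.39 for Icam1, 0.99 for Csf1 and 0.39 for Vcam1. The ratio intervals of these 3 genes lay wholly above 0, beside 3.97% of all genes. Icam1 and Csf1 were named by these intervals, and Vcam1 was fixed with earlier results known, so this adds no further support. The top 5 cells held 52.2% and 60.1% of the Vcam1 UMIs, a spread between cells that its counting interval does not cover.

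The stress library had both a larger share of cells with an Icam1 UMI at equal depth and more cells of high count. Cells with an Icam1 UMI were 37 (16.0%) in the control and 54 (19.0%) in the stress library, against 0.865% and 0.670% of neurons. Thinned to 2500 UMIs these shares were 6.06% (3.35 to 9.96) and 13.7% (9.95 to 18.3). Cells with at least 3 Icam1 UMIs numbered 4 and 21, cells with at least 5 numbered 0 and 9, and the highest cell held 3 and 17. Cells with at least 3 Csf1 UMIs numbered 0 and 10, while the thinned share of cells with a Csf1 UMI was 3.90% (1.80 to 7.27) and 7.04% (4.35 to 10.7), against 2.66% and 2.34% of neurons. The stress cells were shallower on the median (5313 against 6111 UMIs).

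The stress cells with much Icam1 also held most of the Csf1 and Vcam1 RNA. The 30 stress cells with at least 2 Icam1 UMIs, a set chosen after the values were seen, held 53 of the 83 Csf1 UMIs and 111 of the 153 Vcam1 UMIs of that library. Csf1 was at 196 CPM (147 to 257) in them and Vcam1 at 411 CPM (338 to 495). Both levels rested on few of the 30 cells. Single cells held 31, 24, 16, 11 and 10 of the Vcam1 UMIs and 8, 7, 7, 6 and 5 of the Csf1 UMIs. Others of the set held no UMI of either gene, and the counting intervals do not cover this spread between cells. In the 12 control cells of this kind, Csf1 was at 23.2 CPM (6.33 to 59.5) and Vcam1 at 139 CPM (89.3 to 207). In cells with no Icam1 UMI, 194 and 230 in number, Csf1 was at 18.5 and 17.4 CPM and Vcam1 at 47.5 and 23.7 CPM. Cxcl1, a neutrophil chemokine gene, followed Icam1 in both libraries: it was at 116 and 119 CPM in cells with at least 2 Icam1 UMIs and at 17.8 and 16.7 CPM in cells with none. Gkn3 had no UMI in the 12 and 30 cells with at least 2 Icam1 UMIs, of median depth 15192.5 and 8375.5 UMIs, and was at 258 and 155 CPM in cells with no Icam1 UMI.

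**Figure D3:**
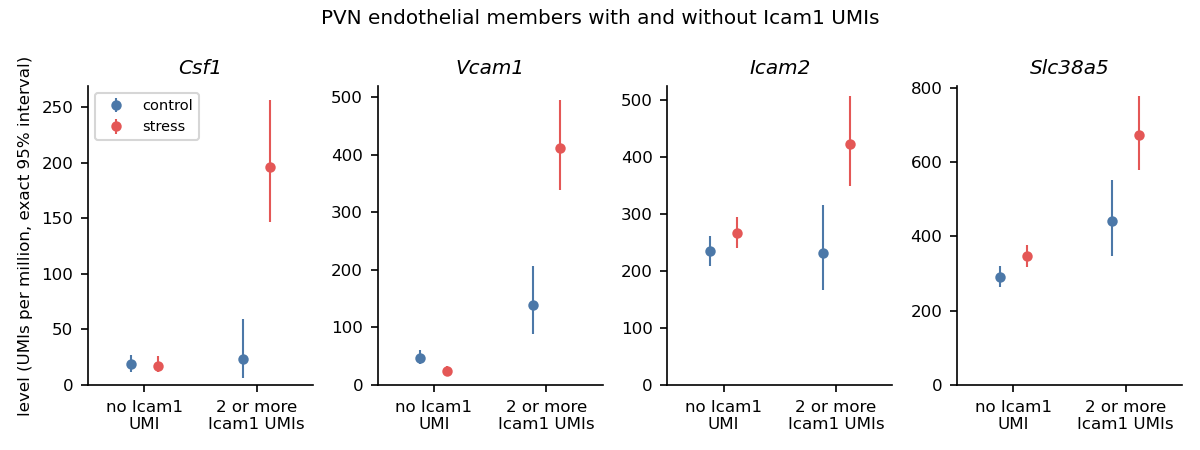
Levels of Csf1, Vcam1, Icam2 and Slc38a5 (CPM, exact 95% intervals, axes from 0) in endothelial cells with no Icam1 UMI and with at least 2, blue for control and red for stress. Csf1 reached 196 CPM only in the stress cells with at least 2 Icam1 UMIs and lay between 17.4 and 23.2 CPM in the other classes drawn.

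Icam1 and Csf1 were higher in the stress library both in cells with many venous counts and in the rest. Among the 61 and 79 cells with at least 5 UMIs of the venous genes Nr2f2, Slc38a5 and Vwf, Icam1 was at 38.2 and 121 CPM and Csf1 at 24.5 and 69.9 CPM. Among the 170 and 205 cells with fewer, Icam1 was at 24.9 and 60.7 CPM and Csf1 at 14.9 and 25.8 CPM. Vcam1 was at 72.3 and 68.6 CPM in the first set and at 36.8 and 91.0 CPM in the second. Icam1 was higher in the stress library in cells with 5 or more pericyte marker UMIs (31.7 and 57.0 CPM) and in those with fewer (29.6 and 105 CPM), whereas Csf1 was at 26.4 and 23.9 CPM in the former and at 13.2 and 58.0 CPM in the latter. The direction for Vcam1 differed in the same way, at 31.7 and 25.2 CPM and at 67.3 and 120 CPM. These splits were also chosen after the values were seen.

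Of the 25 genes of the activation and adhesion list, 9 had at least 50 UMIs, and 3 of these, Icam1, Csf1 and Vcam1, were at least 1.5-fold higher in the stress library, with none as far lower, beside 1.94% and 3.88% of all genes. The median log2 ratio of the list was 0.20, and -0.22 in other PVN cells. Icam2, a constitutive adhesion molecule, was at 248 and 285 CPM, a ratio of 0.20 (0.02 to 0.39), and Tnfaip3, a brake on NF-kB, had the lowest ratio at -0.21 (-1.02 to 0.60). Lcn2, an acute-phase gene, rested on 4 and 8 UMIs. Among 14 measured NF-kB pathway genes, the subunit gene Relb was highest, with 40 and 73 UMIs and a ratio of 0.75 (0.18 to 1.35), and Ier3 lowest at -0.32, around a median of -0.03. The sign of this median depended on the setting. It was 0.22 as a mean of each cell's CPM and 0.34 after subtracting other PVN cells. It was 0.18 without cells carrying other cell type markers and 0.24 without those with pericyte markers. In cells with pericyte markers it was -0.31, and it lay below 0 in the other settings. Nfkbia, which encodes the inhibitor IkB-alpha, was at 1324 and 1147 CPM, a ratio of -0.21, and at -0.71 in other PVN cells.

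Promoters of the activation list were searched for the NF-kB motif, on both strands of the RefSeq promoter table (build GRCm38.p6, 250 bases before to 50 after each start), in which 17 of the 25 genes were found. A match was present in 8 of the 17, and in 11.2% of all 32851 promoters of the table. Csf1 had 1 match, 154 bases before the start, and Icam1 had none in this window. The Csf1 promoter is shown because the gene is second among the 12 highest, with the match in capitals.
Csf1 promoter, chr3:107760420-107760719, minus strand: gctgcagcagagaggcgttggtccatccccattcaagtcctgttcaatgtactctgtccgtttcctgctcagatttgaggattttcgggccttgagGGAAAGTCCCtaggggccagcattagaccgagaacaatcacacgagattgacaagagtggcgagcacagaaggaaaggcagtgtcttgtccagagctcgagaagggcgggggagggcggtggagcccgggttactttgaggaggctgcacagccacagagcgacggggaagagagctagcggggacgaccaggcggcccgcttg

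Heat-shock genes were higher in the stress library as a group. All 24 genes of the list had at least 50 UMIs, 21 lay above 0, beside 44.5% of all genes, 16 had an interval wholly above 0, beside 3.97%, and 5 were at least 1.5-fold higher (Chordc1, Dnaja1, Ahsa2, Hspa1a and Hsph1), beside 1.94%, with none as far lower. The median log2 ratio was 0.43, against -0.03 for all genes. Other PVN cells had ratios of the same direction, with a median of 0.21 and 23 of 24 genes above 0, and the median of the differences between endothelial and other cells was 0.12. Pituitary endothelial barcodes had a list median of 0.61, with 15 of 16 measured genes above 0. Adrenal ones had a median of 0.37, with 20 of 24 above 0.

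Dnaja1, an Hsp40 cochaperone, had 860 and 1521 UMIs, 495 and 811 CPM, a log2 ratio of 0.71 (0.59 to 0.84), and 0.19 in other PVN cells. Hspa1a, the inducible Hsp70, was at 1691 and 2638 CPM, a ratio of 0.64 (0.58 to 0.71), which other PVN cells matched at 0.65. Reads of Hspa1a and its near-identical copy Hspa1b, at 0.48, are hard to tell apart, so the split between them is uncertain. Hspb1, a small heat-shock protein, was at 1587 and 2231 CPM, a ratio of 0.49 (0.42 to 0.56), below the 1.11 of other PVN cells. Of other single genes of the list, Chordc1 at 0.80 (0.30 to 1.32), Cacybp at 0.58, the Hsp90 cochaperone gene Fkbp4 at 0.57 and Hsp90aa1, which encodes a form of Hsp90, at 0.42 stood at 0.31, 0.13, 0.16 and 0.23 in other PVN cells. The mitochondrial chaperonin pair Hspe1 and Hspd1 stood at 0.49 and 0.42. Not all members followed: the Hsp40 gene Dnajb1 was at 0.01 (-0.19 to 0.21) beside 0.51 in other PVN cells, Bag3 at -0.24 (-0.70 to 0.21), and Hsf1, the gene of the heat-shock factor, at -0.20 (-0.75 to 0.34).

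The difference was present from the tenth to the ninetieth percentile of the endothelial cells. The list took a median of 98.1 of every 10000 UMIs of a control cell and 138 of a stress cell, the tenth percentile was 62.6 and 90.5, and the ninetieth was 162 and 215. In other PVN cells the medians were 95.7 and 107. Cells without an Icam1 UMI had the difference as well, with Hspa1a at 1461 and 2451 CPM and Dnaja1 at 475 and 771 CPM.

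The heat-shock element, searched as GAANNTTC, which reads the same on both strands, was present in the promoters of 10 of the 18 list genes found in the table and in 7.86% of all promoters. The 10 were Bag3, Chordc1, Dnaja1, Fkbp4, Hspa1a, Hspa1b, Hspb1, Hspd1, Hspe1 and Hsph1, of which Bag3 was not higher in the stress library. The promoters of Dnaja1, Hspa1a, Fkbp4 and Hspb1 are printed because these 4 genes hold the element and are among the 12 highest of the comparison, with each element in capitals. The element began 124 bases before the start in Dnaja1, 104 before it in Hspa1a, 151 before it in Fkbp4, and 117 and 97 before it in Hspb1. In Hspa1a an NF-kB match that began 105 bases before the start overlapped the element.
Dnaja1 promoter, chr4:40722218-40722517, plus strand: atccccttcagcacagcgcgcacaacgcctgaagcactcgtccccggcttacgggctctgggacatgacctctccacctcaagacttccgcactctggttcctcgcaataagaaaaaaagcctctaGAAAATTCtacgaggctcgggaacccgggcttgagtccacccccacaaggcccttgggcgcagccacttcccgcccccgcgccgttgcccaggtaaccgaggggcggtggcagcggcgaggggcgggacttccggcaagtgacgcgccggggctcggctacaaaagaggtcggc
Hspa1a promoter, chr17:34972107-34972406, minus strand: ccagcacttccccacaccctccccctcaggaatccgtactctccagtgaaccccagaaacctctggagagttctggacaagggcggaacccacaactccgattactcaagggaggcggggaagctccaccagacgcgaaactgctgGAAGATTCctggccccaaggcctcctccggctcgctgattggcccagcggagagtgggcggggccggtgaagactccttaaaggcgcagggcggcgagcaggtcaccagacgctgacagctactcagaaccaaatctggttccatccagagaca
Fkbp4 promoter, chr6:128438607-128438906, minus strand: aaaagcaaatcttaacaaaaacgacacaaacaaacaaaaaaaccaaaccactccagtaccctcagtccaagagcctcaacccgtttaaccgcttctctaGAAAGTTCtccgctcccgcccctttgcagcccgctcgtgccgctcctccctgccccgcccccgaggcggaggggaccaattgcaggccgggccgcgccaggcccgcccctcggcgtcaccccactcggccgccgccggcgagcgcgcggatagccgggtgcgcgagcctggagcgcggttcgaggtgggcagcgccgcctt
Hspb1 promoter, chr5:135887669-135887968, plus strand: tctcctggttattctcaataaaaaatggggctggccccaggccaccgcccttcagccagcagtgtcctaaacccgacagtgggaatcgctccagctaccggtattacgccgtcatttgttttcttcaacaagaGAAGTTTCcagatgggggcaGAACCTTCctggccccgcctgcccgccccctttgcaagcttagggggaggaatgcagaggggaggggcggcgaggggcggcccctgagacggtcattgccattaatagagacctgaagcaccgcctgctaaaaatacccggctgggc

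**Figure D4:**
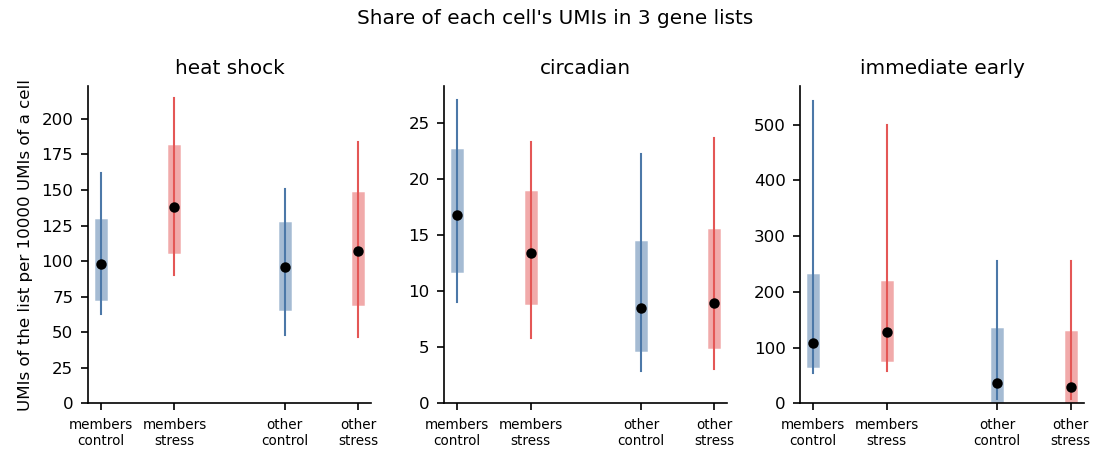
UMIs of 3 gene lists per 10000 UMIs of a cell in endothelial and other PVN cells, black points for the median, thick bars for the middle quartiles and thin lines from the tenth to the ninetieth percentile. The heat-shock median of endothelial cells was 98.1 in the control and 138 in the stress library, and the circadian median was 16.8 and 13.4.

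Clock and clock-output genes were lower in the stress library in the endothelial cells and near 0 in the others. Of 24 listed genes 17 had at least 50 UMIs, 16 of them lay below 0, beside 55.5% of all genes, 4 were at least 1.5-fold lower (Usp2, Ciart, Bhlhe41 and Per3), beside 3.88%, and 1, Cry1, was as far higher, beside 1.94%. Without the cells carrying other cell type markers Usp2 turned to 0.40, from 3 UMIs in all. The median log2 ratio was -0.30, against 0.01 in other PVN cells, where 10 of the 17 were above 0. Ciart, a repressor in the clock's feedback loop, had 102 and 59 UMIs, 58.7 and 31.5 CPM, a ratio of -0.89 (-1.39 to -0.42), and -0.08 in other PVN cells. Dbp, a transcription factor at the clock's output, was at 248 and 181 CPM, a ratio of -0.45 (-0.66 to -0.25), beside 0.04 in other PVN cells. Tef stood at -0.50 (-0.85 to -0.16) and Per3 at -0.63 (-1.10 to -0.18), while the intervals of Per1 at -0.39 (-0.84 to 0.05) and Cry1 at 0.65 (-0.06 to 1.40) held 0. The list took a median of 16.8 and 13.4 of 10000 UMIs per endothelial cell and 8.48 and 8.92 per other PVN cell. In pituitary endothelial barcodes 3 list genes were measured, with a median ratio of -1.10 and none above 0. That median is the value of Tsc22d3, which is on this list and is also counted among the glucocorticoid-responsive genes below. In adrenal ones the median was -0.09, with 6 of 15 above 0. Dbp was at -1.18 in the pituitary and at 1.44 in the adrenal barcodes. The time of day of collection is not given in the sources used here, and its part in these values was not tested.

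The E-box CACGTG, which reads the same on both strands and is bound by the clock's activators, was present in the promoters of 5 of 19 list genes found in the table (Bhlhe41, Ciart, Cry1, Per1 and Tef) and in 7.15% of all promoters. The promoter of Ciart is printed because it held 3 of them, 116, 58 and 44 bases before the start, shown in capitals.
Ciart promoter, chr3:95882179-95882478, minus strand: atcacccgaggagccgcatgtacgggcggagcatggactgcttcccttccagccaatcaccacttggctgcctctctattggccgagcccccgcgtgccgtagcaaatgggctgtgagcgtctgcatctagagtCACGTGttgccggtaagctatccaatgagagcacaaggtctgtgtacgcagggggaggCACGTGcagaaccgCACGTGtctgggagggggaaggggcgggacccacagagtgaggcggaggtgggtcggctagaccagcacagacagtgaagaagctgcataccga

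Genes of the barrier itself, like most endothelial genes, differed little between the libraries. None of 13 junction genes, 22 barrier transport genes or 21 barrier regulators with at least 50 UMIs differed 1.5-fold. Of all genes 1.94% were as far higher and 3.88% as far lower, so these counts do not set the barrier lists apart. The junction median was 0.12, with 10 of 13 above 0, Cldn5 at 0.09 and Jam3 lowest at -0.32 (-0.91 to 0.25). The transport median was -0.01, with Slc2a1 at 0.08, Mfsd2a at -0.06, Slco1a4 at -0.06 and Abcb1a at -0.16. The lipoprotein receptor gene Lrp8 was highest at 0.35 (-0.01 to 0.71). The regulator median was -0.01, from the transcription factor Sox18 at 0.32 (0.03 to 0.60) to Nkd1, a feedback inhibitor and target of Wnt signalling, at -0.49 (-0.65 to -0.33).

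**Figure D5:**
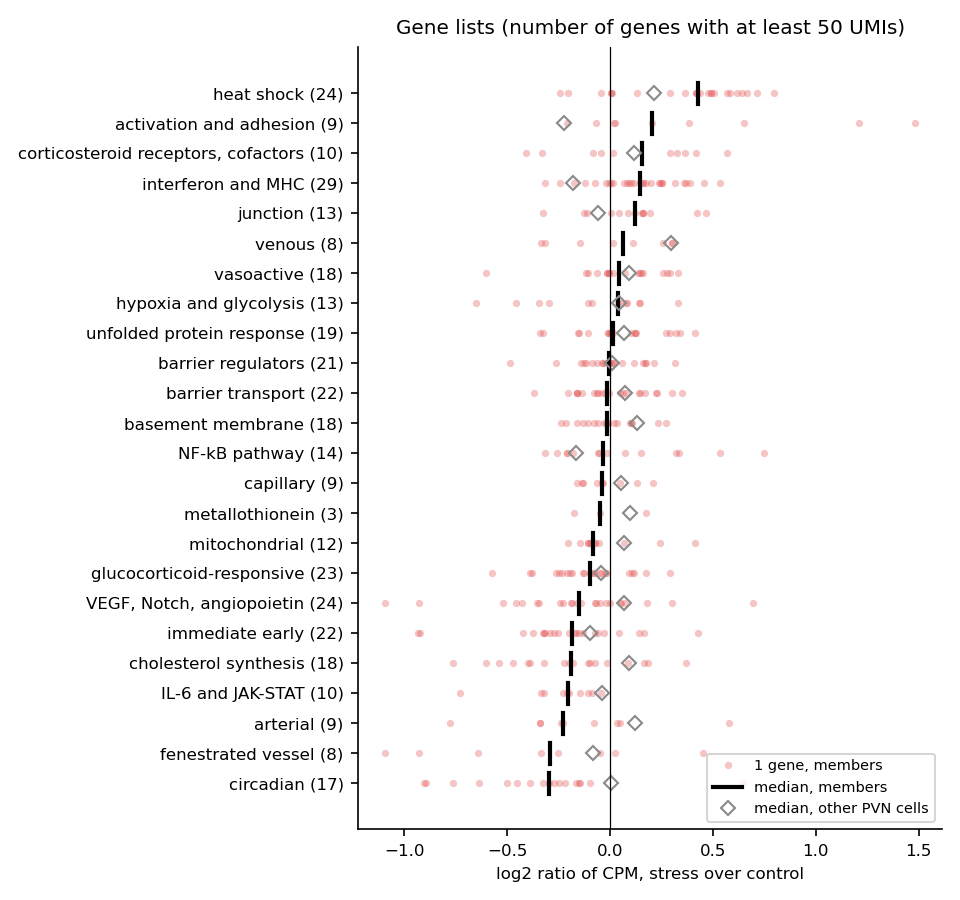
Log2 ratios of stress over control for the genes of 24 lists with at least 50 UMIs, 1 red point per gene, black bars for the median in endothelial cells and grey diamonds for the median in other PVN cells. Heat-shock genes had the highest median at 0.43 and circadian genes the lowest at -0.30, and the barrier lists lay near 0.

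Vessel segment lists held a few genes that were lower in the stress library. On the arterial list 1 of 9 measured genes was 1.5-fold lower, beside 3.88% of all genes. This was Gkn3, with 366 and 230 UMIs and a ratio of -0.78 (-1.02 to -0.54). It was found in 25 and 28 cells, of which the top 5 held 64.8% and 58.3% of the UMIs. Without the cells that held 5 pericyte marker UMIs the Gkn3 ratio was -0.23. The arterial median was -0.23, with Vegfc highest at 0.58. Of 8 fenestrated-vessel genes 3 were 1.5-fold lower, beside 3.88% of all genes, the apelin receptor gene Aplnr at -1.09 (-1.86 to -0.39), the semaphorin and VEGF-C receptor gene Nrp2 at -0.93 (-1.47 to -0.42) and Igfbp3 at -0.64 (-1.26 to -0.04), with a median of -0.29 and Cd24a highest at 0.45. In other PVN cells Aplnr had 2 UMIs in all, too few for a ratio, and Nrp2 was at 0.04. Aplnr was short of 1.5-fold at -0.34 without the cells that held 5 pericyte marker UMIs, at -0.52 without those carrying any other cell type markers and at -0.46 after thinning, and was at -2.02 in the cells with pericyte markers. Nrp2 was at 0.23 without the cells carrying other markers (30 UMIs in all) and at 0.39 after thinning. The list median was at 0.00410 after thinning and at 0.21 in the cells with pericyte markers, in each over the 4 genes still measured. No measured capillary or venous gene differed 1.5-fold, beside 1.94% higher and 3.88% lower of all genes, with medians of -0.04 and 0.06. They ran from Cxcl12 at 0.21 to the transferrin receptor gene Tfrc at -0.16, and from Slc38a5 at 0.30 to Il1r1 at -0.33. On the VEGF, Notch and angiopoietin list 18 of 24 genes lay below 0, beside 55.5% of all genes, with a median of -0.15. On it 2 genes were 1.5-fold lower (Aplnr and Nrp2 again, with the same dependence), beside 3.88% of all genes. As far higher was 1, the Notch target Heyl at 0.69 (-0.10 to 1.55), beside 1.94%.

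Glucocorticoid-responsive genes lay near 0, with most of them below it. None of 23 measured genes differed 1.5-fold, beside 1.94% higher and 3.88% lower of all genes. Of the 23, 18 lay below 0, beside 55.5% of all genes. The median was -0.10, beside -0.04 in other PVN cells. Sgk1, a kinase that glucocorticoids induce, was at 211 and 227 CPM, a ratio of 0.11 (-0.10 to 0.31), Tsc22d3 at -0.10 (-0.23 to 0.04), and the receptor gene Nr3c1 at -0.08 (-0.31 to 0.15). Fkbp5, an inhibitor of the receptor, rested on 15 and 26 UMIs, with a ratio of 0.66 (-0.29 to 1.71) that this depth could not set apart from 0. The list ran from the endothelin gene Edn1 at 0.29 (0.06 to 0.54) to Galnt15 at -0.57 (-1.21 to 0.04). The list of corticosteroid receptors and cofactors had a median of 0.15, from Fkbp4 at 0.57 to the coactivator gene Ncoa2 at -0.41, and 0.12 in other PVN cells.

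Interferon and antigen-presentation genes lay slightly above 0 in the endothelial cells. Of 29 measured genes 22 were above 0, beside 44.5% of all genes, and 12 had intervals wholly above it, beside 3.97%. None differed 1.5-fold, beside 1.94% higher and 3.88% lower of all genes. The list median was 0.15, against -0.18 in other PVN cells. Gbp2, an interferon-induced GTPase, was highest at 0.54 (0.19 to 0.89), B2m, the light chain of MHC class I, was at 0.25 (0.18 to 0.33), and Rsad2 was lowest at -0.32. Pituitary endothelial barcodes had a list median of 0.19, with 16 of 25 measured genes above 0. Adrenal ones had a median of 0.37, with 29 of 29 above 0. In the PVN cells all 10 measured IL-6 and JAK-STAT genes were below 0, beside 55.5% of all genes. Their median of -0.20 turned to 0.0134 without the cells carrying other cell type markers. They ran from Osmr at -0.05 to Cebpb, a transcription factor of acute inflammation, at -0.73 (-1.04 to -0.43). Socs3, a feedback inhibitor, was at -0.32 (-0.54 to -0.10). Cebpb was at 0.13 and Socs3 at 0.80 without the cells that carried other cell type markers.

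Immediate-early genes, which tissue dissociation also induces, lay below 0 for 18 of 22 genes, beside 55.5% of all genes, with a median of -0.18 and of -0.10 in other PVN cells. Egr2 at -0.92 (-1.41 to -0.46) and Fosl2 at -0.93 (-1.53 to -0.37) were 1.5-fold lower, beside 3.88% of all genes, and Ctgf was highest at 0.43. The median share of the list per cell nevertheless was 109 of 10000 UMIs in the control and 129 in the stress library, and 36.4 and 30.1 in other PVN cells. Cholesterol synthesis genes lay below 0 for 14 of 18 genes, again beside 55.5%, with a median of -0.19 beside 0.09 in other PVN cells, from Dhcr7 at 0.37 to Idi1 at -0.76 (-1.26 to -0.28). This direction turned without the 10 deepest cells of each library, to 0.15, and without the cells carrying other markers, to 0.0880 over 6 of the 18 genes.

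The remaining lists had medians between -0.08 and 0.04. They were the unfolded protein response (0.02, from Pdia4 at 0.41 to Ppp1r15a at -0.34), vasoactive genes (0.04, from the endothelin receptor gene Ednrb at 0.33 to the protein C receptor gene Procr at -0.60, which was 1.5-fold lower), basement membrane (-0.02, from Nid2 at 0.27 to Lamc1 at -0.24) and hypoxia and glycolysis (0.04, from P4ha1 at 0.33 to Pfkfb3 at -0.65, also 1.5-fold lower). The intervals of Procr (-1.35 to 0.11) and Pfkfb3 (-1.41 to 0.07) held 0, and 3.88% of all genes were as far lower. Mitochondrially encoded genes had a median of -0.08, from mt-Atp8 at 0.41 to mt-Co1 at -0.20, and the 3 metallothionein genes of -0.05, from Mt2 at 0.17 to Mt3 at -0.17. Of 10 proliferation genes Pcna alone had at least 50 UMIs, at -0.05.

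Both vitamin uptake genes were higher in the stress library and had less than 1 CPM in other PVN cells. Stra6, the receptor through which cells take up retinol from its carrier protein, had 60 and 123 UMIs, 34.5 and 65.6 CPM, a ratio of 0.92 (0.47 to 1.40), against 0.354 and 0.445 CPM in other PVN cells. It was found in 49 and 87 cells, 21.2% and 30.6%, or 9.52% (6.07 to 14.1) and 14.1% (10.3 to 18.7) after thinning, against 0.200% and 0.268% of neurons before it. Slc52a3, a riboflavin transporter, had 82 and 147 UMIs, 47.2 and 78.4 CPM, a ratio of 0.73 (0.33 to 1.14), in 62 and 101 cells, against 0.106 and 0.0741 CPM in other PVN cells. Haemoglobin genes were higher in the stress library in the summed counts of endothelial and of other PVN cells. Hbb-bs had a ratio of 0.47 in the endothelial cells and 2.36 in the others, and Hba-a2 of 0.44 and 2.31. The endothelial values rested on few cells. Hbb-bs was found in 21 and 83 cells, with 75.2% and 59.8% of its UMIs in 5 of them. Hba-a2 was found in 12 and 36 cells, with 81.0% and 64.5% in 5. Without the 5 highest cells of each library the endothelial ratios were 1.16 for Hbb-bs and 1.34 for Hba-a2.

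Several of the lower genes rested on few cells that also held RNA of other types. Col23a1, a collagen gene on the tanycyte list, had 144 and 70 UMIs in 10 and 9 cells, of which the top 5 held 81.9% and 91.4%. The summed tanycyte level, also lower in the stress library, includes Col23a1 itself and so is not separate from it. Cells with at least 5 tanycyte marker UMIs numbered 7 and 8. Nnat, at 4819 and 3405 UMIs and a ratio of -0.61, had 80.2% and 66.8% of its UMIs in 5 cells, and stood at 0.14 without them. Ntrk2, the BDNF receptor gene, was at -0.80 with 77.1% and 70.7% in 5 cells, S100a6 at -0.77 with 78.6% and 69.1%, and Mdk, a growth factor gene, at -0.94 with 69.2% and 60.8%. Slc25a18, a mitochondrial glutamate carrier gene, had 98 and 35 UMIs in 28 and 14 cells, a ratio of -1.58 (-2.19 to -1.02), and only 2 UMIs in all were left without the cells that carried other cell type markers, too few for a ratio. Ssh2, which encodes a cofilin phosphatase, was spread more widely, with 83 and 41 UMIs in 62 and 35 cells, a ratio of -1.12 (-1.70 to -0.57), and 0.07 in other PVN cells.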

How the data were processed

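Cells of the 6 libraries were captured with 10x Genomics droplet chemistry, and the authors deposited whole-number UMI counts per gene and barcode, made with Cell Ranger 2.1.1 on the mm10 genome, per the submitters' processing notes, which also name Scanpy without a version or role. The deposited count tables held 27998 genes and no annotation of cell types. The members and gene lists were chosen with earlier results of these data known. Members were found by the stated limits on counts. No doublet caller was run: doublets were treated through the neuronal and microglial limits and by an alternative without cells that carry markers of other types. UMIs were summed over the members of each library and given as CPM with exact Poisson intervals, shares with exact Clopper-Pearson intervals, and log2 ratios of CPM with 0.5 UMI added to each sum and the exact conditional interval, all at 95% and for counting error only. With 1 library per group no test was made. A gene entered counts and medians with at least 50 UMIs over both libraries, and "higher" or "lower" by 1.5-fold refers to this ratio. Named genes were, among those with at least 100 UMIs, a UMI in at least 10 cells of the library where they are higher and a level at least 0.5 times that of other PVN cells, the 12 highest and 12 lowest by the interval bound nearest to 0, plus the highest and lowest gene of each of the 25 lists and a fixed set; other genes and the sets of cells said to be so were chosen after the values were seen. Some named genes are not reported here. Gene coordinates are from GENCODE vM21 (GRCm38) and promoters from RefSeq (GRCm38.p6). Of the listed genes, Cavin2 was not in the count tables under that symbol. The ratio and its intervals were tested on simulated counts. Python 3.11.15, NumPy 2.4.6, SciPy 1.17.1, pandas 2.3.3 and Matplotlib 3.10.9 were used.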

Additional observations from a re-analysis of the deposited data

Results flagged for a closer look

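A few genes had ratios of stress over control on opposite sides of 0 in the PVN endothelial cells and in the endothelial barcodes of another tissue, with both exact 95% intervals clear of 0. The differences between tissues were not tested, since each tissue and condition was 1 library. Dbp, a clock output gene, was at -0.45 in the PVN and at 1.44 (1.03 to 1.90) in the adrenal gland. In pituitary endothelial barcodes Dbp lay on the same side as in the PVN, at -1.18 (-1.74 to -0.64). Mt2, a metallothionein gene, was at 0.17 in the PVN and at -1.46 (-1.89 to -1.05) in the adrenal gland. Aplnr was at -1.09 in the PVN, at 0.46 (0.20 to 0.73) in the pituitary and at 0.52 (0.18 to 0.87) in the adrenal gland. Nrp2 was at -0.93 in the PVN and at 0.58 (0.06 to 1.15) in the pituitary. Nnat was at -0.61 in the PVN and at 0.36 (0.15 to 0.59) in the pituitary. S100a6 was at -0.77 in the PVN and at 0.20 (0.03 to 0.37) in the adrenal gland. Several of these PVN ratios depended on few cells or on the setting. Without the 5 cells of each PVN library with the most UMIs of the gene, Nnat was at 0.14 and S100a6 at -0.23. Nrp2 was at 0.39 in the PVN after thinning. Aplnr was at -0.34 there without the cells that held 5 pericyte marker UMIs.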

How the results depend on the processing

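With 1 library per group, the spread between mice was not measured, and depth limited genes such as Fkbp5. No paired analysis was possible because each group was 1 library and the labels carry no replicate numbers that pair them. The alternatives on pericyte markers were chosen after seeing the data. Of the alternative values of the main results, 151 stayed close to the main value, 16 moved away from it and 1 was counted as changing sign. Sign changes of list medians that lay close to 0 were not counted as such. The NF-kB pathway median, -0.03 in the main setting, was at 0.22 as a mean of each cell's CPM. It was at 0.18 without cells carrying other markers and at 0.34 after subtracting other PVN cells. Against non-neuronal barcodes the shares of endothelial cells were 11.2% and 14.0%. Genes 1.5-fold higher numbered 245 after subtracting other PVN cells, 419 with at least 20 UMIs and 9 with at least 200, and genes 1.5-fold lower 468, 741 and 20; the lower count was also 152 without cells carrying other cell type markers, 186 in cells carrying pericyte markers and 190 after thinning to 2500 UMIs, with fewer genes tested in these 3. The activation median was 0.74 without cells carrying other markers and 0.77 after subtracting other PVN cells, which also left the heat-shock median at 0.12 and the junction median at -0.0895, the sign change. The immediate-early median was -0.0370 as a mean of each cell's CPM and -0.0484 after thinning. Some other sign changes follow, and their cause was not tested. After subtracting other PVN cells, Heyl was at -0.24 and Hspa1a at -0.0108; Aplnr was at 1.16, a value set by 2 UMIs in other PVN cells and so uninformative. Without cells carrying other markers, Cebpb was at 0.13, Nrp2 at 0.23, Pfkfb3 at 0.10, Usp2 at 0.40 (3 UMIs in all), the JAK-STAT median at 0.0134 and the cholesterol median at 0.0880. In cells carrying pericyte markers, Csf1 was at -0.14, Vcam1 at -0.32, Egr2 at 0.30, Nnat at 0.87, Ntrk2 at 0.21, S100a6 at 2.63, the fenestrated median at 0.21 and the cholesterol median at 0.34. After thinning, Nrp2 was at 0.39 and the fenestrated median at 0.00410. Nnat was at 0.14 without its 5 highest cells, and the cholesterol median at 0.15 without the 10 deepest.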
